A study of Mus musculus with 6 samples.

Results

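The Polycomb repressive complex genes are 32 of the 24393 features counted in mouse embryonic stem cells with and without overexpression of HOXA13. They were taken by gene symbol from a fixed list of subunits and fall into 4 classes, 6 genes of the PRC2 core, 5 PRC2 accessory genes, 12 canonical PRC1 genes and 9 variant PRC1 genes. All 32 were found in the count tables, and all 32 passed the filter on low counts. KH2 cells, an embryonic stem cell line labelled as strain C57/BL/6, were kept in medium with serum and LIF on irradiated mouse fibroblasts as feeder cells. The HOXA13 group carries a FLAG-tagged human *HOXA13* gene, with its intron, which was targeted into KH2 cells so that doxycycline controls it. The control group is labelled only as CONTROL. A figure legend of the paper calls the comparison cells of its differentiation experiment wildtype, and no source here says whether the sequenced control cultures carry the insert. The labels state that none of the 6 cultures was treated. According to the study's methods, doxycycline was given to correctly targeted clones to check that HOXA13 was induced, and no source used here says whether the sequenced cultures received it. Each group holds 3 libraries, which the methods call biological replicates, and no source says whether each library came from its own clone, so the p-values measure the spread between these libraries.

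Polycomb proteins keep developmental genes silent through a pair of complex types. PRC2 methylates histone H3 on lysine through EZH1 or EZH2, and the core needs EED, SUZ12 and a histone-binding RBBP protein beside the enzyme. Its accessory proteins (JARID2, AEBP2 and the Polycomb-like proteins MTF2, PHF1 and PHF19) help to set where the complex binds. PRC1 places ubiquitin on histone H2A through RING1 or RNF2, each of which pairs with a PCGF protein. In canonical PRC1, PCGF2 or BMI1 joins a CBX protein, which reads the PRC2 mark, and a PHC protein, which links complexes to each other. In variant PRC1, RYBP or YAF2 takes the place of the CBX protein, and KDM2B, L3MBTL2 or BCOR joins complexes with particular PCGF proteins. In embryonic stem cells these complexes occupy the CpG-rich promoters of genes that are used later, during differentiation.

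Promoters of the members are shown first, since the complexes and several of their regulators act at CpG-rich starts of genes. RefSeq promoters (build GRCm38.p6, 250 bases before to 50 bases after a gene's start) were matched by symbol to 28 of the 32 members (all but *Cbx2*, *Pcgf1*, *Rybp* and *Yaf2*), using the start farthest 5′ where a gene has several. The 28 windows held a median of 24 CpG dinucleotides, from 4 in *Aebp2* to 54 in *Scmh1*, and the median over the 27025 promoters of the table was 7. The windows printed whole are those of the called gene with the largest fold change in each class, *Ezh2*, *Jarid2*, *Scmh1* and *Pcgf5*, 5′ to 3′ on the gene's strand. Capitals mark an E2F word (TTTCCCGC, TTTCGCGC, TTTGCCGC or TTTGGCGC) or a CCAAT box (CCAAT), each searched on both strands, and the *Scmh1* window held neither.
*Ezh2* promoter, chr6:47594981-47595280, minus strand: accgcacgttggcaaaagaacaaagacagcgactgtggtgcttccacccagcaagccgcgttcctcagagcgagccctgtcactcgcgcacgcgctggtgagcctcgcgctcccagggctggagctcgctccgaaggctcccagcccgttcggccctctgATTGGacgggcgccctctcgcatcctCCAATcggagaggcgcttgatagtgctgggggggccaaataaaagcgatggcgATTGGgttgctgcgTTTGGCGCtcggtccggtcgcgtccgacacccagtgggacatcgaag
*Jarid2* promoter, chr13:44730524-44730823, plus strand: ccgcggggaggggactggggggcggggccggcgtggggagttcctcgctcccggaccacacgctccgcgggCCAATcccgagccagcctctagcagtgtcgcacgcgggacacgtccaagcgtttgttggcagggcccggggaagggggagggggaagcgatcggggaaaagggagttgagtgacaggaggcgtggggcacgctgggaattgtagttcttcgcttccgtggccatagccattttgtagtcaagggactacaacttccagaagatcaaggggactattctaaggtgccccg
*Scmh1* promoter, chr4:120405098-120405397, plus strand: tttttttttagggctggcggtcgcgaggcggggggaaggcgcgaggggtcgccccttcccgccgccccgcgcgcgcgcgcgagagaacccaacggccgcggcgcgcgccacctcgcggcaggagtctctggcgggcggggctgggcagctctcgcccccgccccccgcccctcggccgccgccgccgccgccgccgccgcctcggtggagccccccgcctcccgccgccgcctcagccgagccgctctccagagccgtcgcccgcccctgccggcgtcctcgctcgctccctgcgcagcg
*Pcgf5* promoter, chr19:36348079-36348378, plus strand: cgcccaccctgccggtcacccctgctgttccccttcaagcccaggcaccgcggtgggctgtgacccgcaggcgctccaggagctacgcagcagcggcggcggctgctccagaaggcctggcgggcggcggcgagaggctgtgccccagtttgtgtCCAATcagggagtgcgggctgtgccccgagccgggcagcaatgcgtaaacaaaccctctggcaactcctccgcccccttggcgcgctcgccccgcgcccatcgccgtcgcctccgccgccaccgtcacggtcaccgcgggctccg

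An E2F word, the site form bound by the cell-cycle factors of that name, occurred in 3 of the 28 members (*Ezh2*, *Suz12* and *Phf19*) and in 2.33% of all promoters, which were not matched to the members on CpG content. These 3 genes are PRC2 genes that were higher in the HOXA13 group. The E2F word was found in 3 of the 10 matched members that were higher, in 0 of the 5 that were lower and in 0 of the 13 that were not called. Among these, the *Suz12* call held in only 6 of 15 alternatives, and the split was not tested. The *Suz12* and *Phf19* words are shown in windows of 24 bases, picked after the search.
*Suz12* E2F window, chr11:79992879-79992902, plus strand: cccctcatTTTCCCGCgaattcag
*Phf19* E2F window, chr2:34914169-34914192, minus strand: aataattcGCGGGAAAacgcgaaa
The CCAAT box was present in 11 of the 28 members and in 38.0% of all promoters, and the *Ezh2* window held 3 of them. The HOX13 words CTCGTAAA and CCAATAAA, the second of which contains a CCAAT box, were in 0 of the 28 windows and in 0.148% and 1.21% of all promoters. A match is a description of letters in this window and does not show that a factor binds there.

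Of the 32 genes, 11 were higher and 5 were lower in the HOXA13 group than in the control group, and 16 did not pass the test (edgeR quasi-likelihood test, Benjamini-Hochberg adjusted p under 0.05 over all 13846 genes tested). The 16 called genes are 50% of the members, beside 27.7% of all tested genes called in either direction, 14.4% called higher and 13.3% called lower. The changes were modest. Only *Scmh1* and *Pcgf5* reached a fold of 2 among the 16, and the median size of the log2 fold change without regard to sign was 0.34 over the members and 0.23 over all tested genes. In 20 of the 32 genes the 3 HOXA13 libraries lay wholly above (13 genes) or wholly below (7 genes) the 3 control libraries, which also held for 45.7% of all tested genes. PRC2 and PRC1 genes are described separately, since 6 of the 11 PRC2 genes were higher and 0 were lower, while of the 21 PRC1 genes 5 were higher and 5 were lower. The median log2 fold change was 0.32 over the PRC2 genes and -0.04 over the PRC1 genes, beside 0.00 over all tested genes, and the difference between the complexes was not tested. At an unadjusted p under 0.05, and by DESeq2 and limma-voom at an adjusted p under 0.05, 0 PRC2 genes were lower as well.

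**Figure D1:**
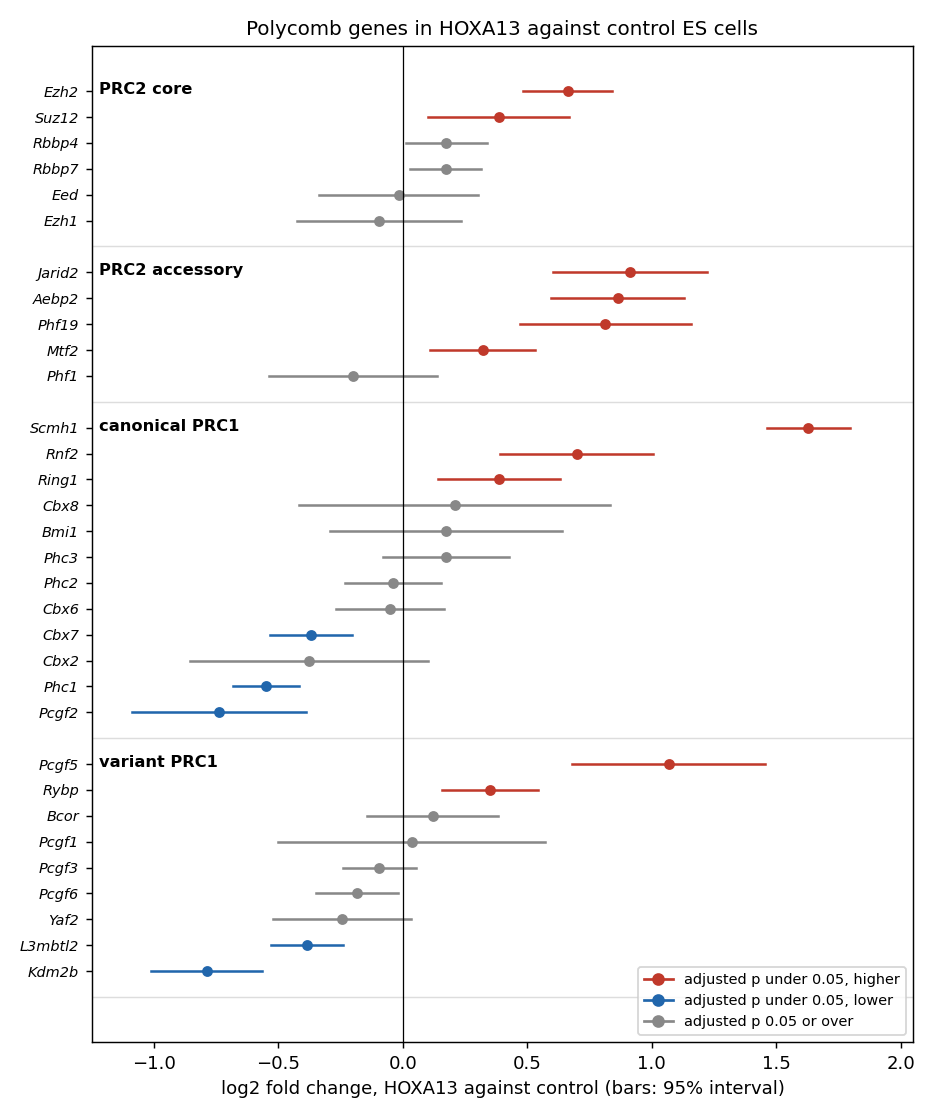
Log2 fold change of each of the 32 genes, HOXA13 against control, by class, with points for edgeR's estimate, bars for its 95% interval and color for the call at an adjusted p under 0.05. All 6 called PRC2 genes lie to the right of 0, the called PRC1 genes lie on both sides, and *Scmh1* lies farthest out at 1.63.

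Libraries held 13494135 to 21766589 counts, so that 3 counts correspond to 0.134 to 0.227 CPM (counts scaled to a common library size with TMM factors). As a check of the labels, the human feature ENSG00000106031, which the files do not pair with a symbol, was counted 6, 0 and 0 times in the control group and 4298, 4177 and 2881 times in the HOXA13 group. All 10 embryonic stem cell markers were detected, with *Pou5f1* at 633 to 783 CPM in the control and 685 to 694 CPM in the HOXA13 libraries. Their summed level was 2548 to 3526 CPM in the control and 3617 to 3735 CPM in the HOXA13 group, with 5 higher (*Sox2*, *Nanog*, *Esrrb*, *Klf4* and *Fbxo15*) and 1 lower (*Tdgf1*). The 10 primitive streak markers summed to 473, 46.5 and 212 CPM in control libraries 1 to 3 and to 21.2 to 24.0 CPM in the HOXA13 libraries, with 6 of 8 tested genes lower (*T*, *Mixl1*, *Eomes*, *Fgf8*, *Wnt3* and *Fgf5*, of which limma-voom called only *Fgf5*). *Mixl1*, *Fgf8*, *Wnt3* and *Fgf5* had under 10 counts in at least 1 HOXA13 library, *Fgf8* 0 or 1 in each, and were not tested when 10 counts were required in every library. The 12 fibroblast markers, which feeder cells can add, summed to 4254 to 6571 CPM in the control and 5923 to 7471 CPM in the HOXA13 libraries, and edgeR and limma-voom called 0 of the 12 (1 was higher at an unadjusted p under 0.05). Under the alternatives *Col3a1* was called higher by DESeq2, with the replicate block, without control library 1 and without control library 2, *Col1a1* higher with the replicate block, *Thy1* lower without control library 1 and *Twist2* lower with each chromosome centred. The 6 primitive endoderm markers summed to 37.2 to 42.9 CPM and 48.3 to 50.3 CPM, with 2 higher (*Gata6* and *Sox7*) and 1 lower (*Pdgfra*) of 5 tested. Of these marker calls, those of *Sox2*, *Esrrb*, *Klf4*, *Mixl1*, *Eomes*, *Wnt3*, *Sox7* and *Pdgfra* were lost when one or another single library was left out. The part of these other cell states in the Polycomb results was not tested, and in bulk RNA fewer cells of a type cannot be told apart from less RNA per cell. Without control library 1 all 16 calls held, with 13 members higher and 5 lower and 30.9% of all tested genes called. Without control library 3 12 calls held, with 7 members higher and 5 lower and 18.4% of all tested genes called, and *Suz12*, *Mtf2*, *Ring1* and *Rybp* lost theirs. Without control library 2, which had the lowest streak marker sum, 15 calls held and that of *Suz12* was lost, *Rbbp4*, *Phc3* and *Yaf2* were called in addition, and 12 members were higher and 6 lower, with 35.5% of all tested genes called.

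In the PRC2 core, *Ezh2* and *Suz12* were higher in the HOXA13 group and the other 4 genes did not pass the test. *Ezh2*, the methyltransferase of PRC2 in dividing cells, lies on the minus strand of chromosome 6 of mm9 (chr6:47480273-47545340). It measured 189, 226 and 203 CPM in the control libraries and 340, 319 and 318 CPM in the HOXA13 libraries. The lowest HOXA13 library was well above the highest control library, and the rise was 1.58-fold (log2 fold change 0.66, standard error 0.08, edgeR adjusted p = 0.000725). *Suz12*, the scaffold of the core, measured 398, 293 and 295 CPM in the control and 464, 415 and 407 CPM in the HOXA13 libraries. Control library 1 came close to the HOXA13 group, and the 1.31-fold rise passed the test narrowly (log2 fold change 0.38, standard error 0.12, edgeR adjusted p = 0.0496). This call was lost when control library 2 or 3 or HOXA13 library 1, 2 or 3 was left out, and under 4 other settings, with adjusted p from 0.000444 to 0.177 over 15 alternatives. *Suz12* lies on chromosome 11, where the median log2 fold change over 1140 tested genes was -0.12. With each chromosome centred its log2 fold change was 0.51 (edgeR adjusted p = 0.00111).

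*Ezh1*, the second methyltransferase, which is weaker and prevails in resting cells, was at 30.8 ± 6.23 CPM in the control and 28.9 ± 1.87 CPM in the HOXA13 group (SD, n = 3). Its log2 fold change of -0.10 had a 95% interval from -0.42 to 0.23. *Eed*, which binds the methyl mark and stimulates the enzyme, was at 175 ± 36.5 and 173 ± 11.9 CPM (SD, n = 3), and its interval ran from -0.34 to 0.30. The histone-binding *Rbbp4* measured 458, 532 and 503 CPM in the control and 586, 544 and 555 CPM in the HOXA13 libraries, and its relative *Rbbp7* 358, 334 and 351 CPM and 414, 383 and 378 CPM. In both RBBP genes every HOXA13 library lay above every control library, but the log2 differences of 0.17 did not pass the test (edgeR adjusted p = 0.104 and 0.0734). *Rbbp7* passed without control library 1 (adjusted p = 0.0452) and *Rbbp4* without control library 2 (adjusted p = 0.0382). *Rbbp7* shares 5.98% of its exon bases with *Txlng* on the opposite strand, which was higher (log2 fold change 0.38) and had counts equal to 11.4% of those of *Rbbp7* in the control and 13.3% in the HOXA13 group.

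Of the 5 listed accessory genes of PRC2, 4 were higher and 0 were lower, with a median log2 fold change of 0.81. *Jarid2*, whose product helps to recruit PRC2 and to stimulate it, lies on the plus strand of chromosome 13 (chr13:44824843-45017012 of mm9). Its level was 373, 565 and 482 CPM in the control libraries and 926, 883 and 862 CPM in the HOXA13 libraries. The control libraries were spread widely while the HOXA13 libraries stayed together above them, and the rise was 1.88-fold (log2 fold change 0.91, standard error 0.13, edgeR adjusted p = 0.00211). *Aebp2*, a zinc finger cofactor found together with JARID2, measured 88.6, 120 and 118 CPM in the control and 209, 189 and 195 CPM in the HOXA13 libraries. The groups did not overlap, and the rise was 1.82-fold (log2 fold change 0.86, standard error 0.12, edgeR adjusted p = 0.00139).

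The 3 Polycomb-like genes, whose products bind CpG-rich DNA and hold PRC2 there, did not move as one. *Phf19* measured 23.2, 15.5 and 16.7 CPM in the control and 31.2, 34.2 and 32.4 CPM in the HOXA13 libraries, a 1.76-fold rise with no overlap (log2 fold change 0.81, standard error 0.15, edgeR adjusted p = 0.00564). *Mtf2* measured 242, 286 and 269 CPM in the control and 369, 317 and 307 CPM in the HOXA13 libraries. Here the groups stood apart by little, and the rise was 1.25-fold (log2 fold change 0.32, standard error 0.09, edgeR adjusted p = 0.0332). The *Mtf2* call was lost without control library 3, without HOXA13 library 1, 2 or 3, with library size alone and with the replicate block (adjusted p from 0.0130 to 0.117 over 15 alternatives). *Mtf2* shares 7.51% of its exon bases with *Tmed5* on the opposite strand, and *Tmed5* was lower (log2 fold change -0.30), with counts equal to 29.9% of those of *Mtf2* in the control and 19.2% in the HOXA13 group. *Phf1* was at 11.6 ± 0.80 CPM in the control and 10.1 ± 1.77 CPM in the HOXA13 group (SD, n = 3), with a log2 interval from -0.54 to 0.14.

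**Figure D2:**
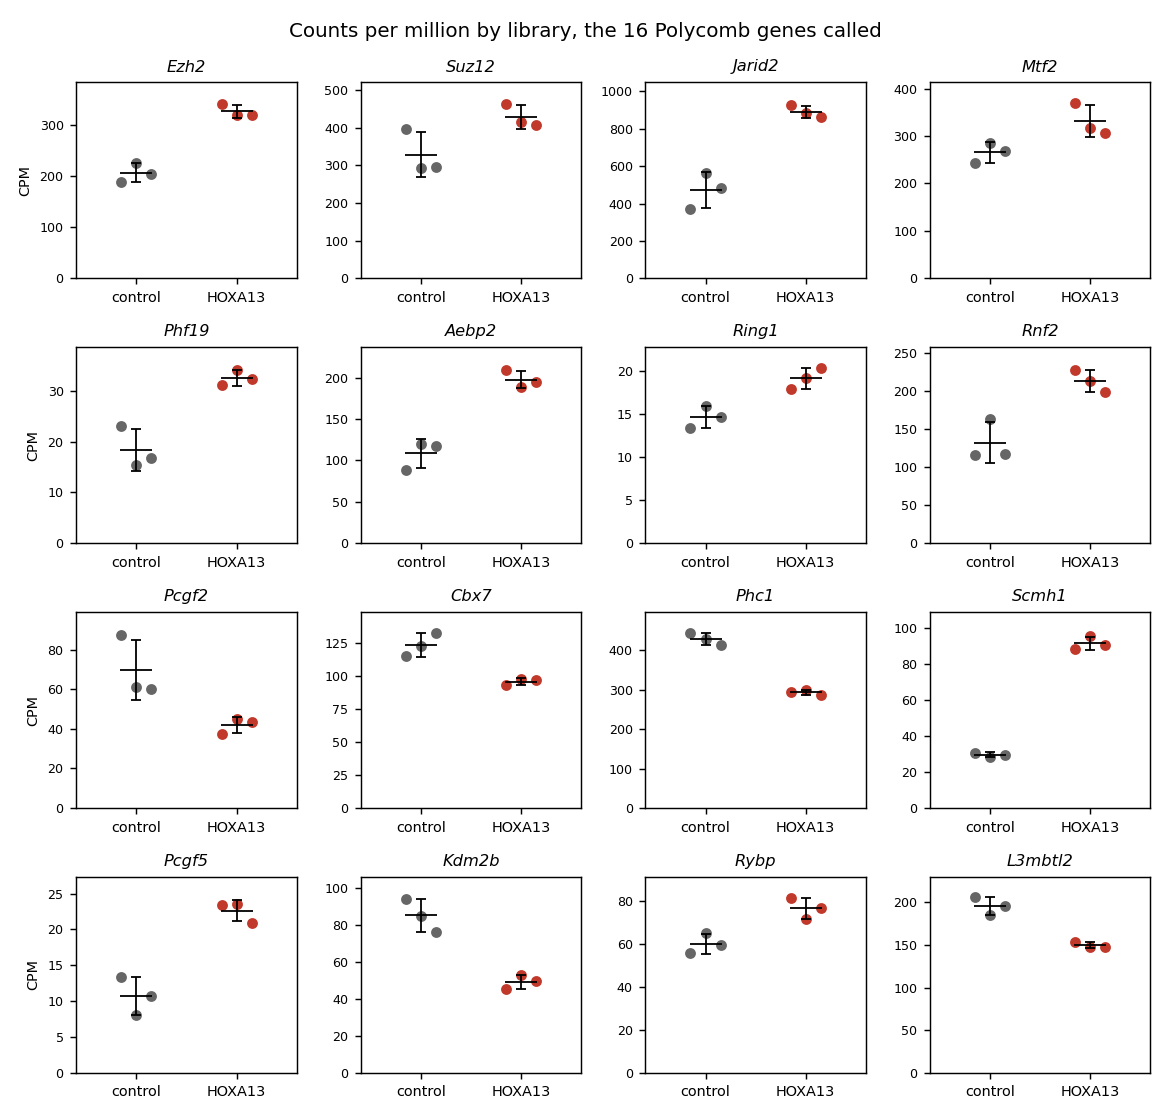
CPM (linear axis from 0) in each library of the 16 called genes, with gray points for the 3 control libraries, red points for the 3 HOXA13 libraries, horizontal lines for the means and bars for 1 SD. In all 16 panels the groups do not overlap, with a wide gap in *Scmh1* and a narrow one in *Suz12*, where control library 1 is at 398 CPM.

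Among the 12 canonical PRC1 genes, 3 were higher, 3 were lower and 6 did not pass the test. *Ring1* and *Rnf2*, both among the higher genes, are placed in this class but are shared with variant PRC1. *Scmh1*, which encodes a Polycomb protein with a SAM domain that binds PHC proteins, changed most of the 32 members. It lies on the plus strand of chromosome 4 (chr4:120077886-120202804 of mm9) and measured 30.8, 28.1 and 29.6 CPM in the control libraries against 88.0, 95.4 and 90.4 CPM in the HOXA13 libraries. Both groups were tight, and the rise was 3.09-fold (log2 fold change 1.63, standard error 0.07, edgeR adjusted p = 1e-05).

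Both E3 ubiquitin ligase genes of PRC1 were higher. *Rnf2*, which encodes RING1B, measured 115, 163 and 117 CPM in the control and 228, 213 and 199 CPM in the HOXA13 libraries, with control library 2 the highest of its group and still below every HOXA13 library. The rise was 1.62-fold (log2 fold change 0.70, standard error 0.13, edgeR adjusted p = 0.00670). *Rnf2* lies on chromosome 1, where the median over 779 tested genes was 0.38 on the log2 scale and where the 4 nearest tested neighbors of *Rnf2* were all higher. With each chromosome centred in each library, *Rnf2* was still called, at a log2 fold change of 0.34 (adjusted p = 0.0282). *Ring1*, its paralog, measured 13.3, 15.9 and 14.7 CPM in the control and 17.9, 19.2 and 20.3 CPM in the HOXA13 libraries, a 1.31-fold rise (log2 fold change 0.39, standard error 0.11, edgeR adjusted p = 0.0293). The *Ring1* call was lost without control library 3, without HOXA13 library 1, 2 or 3 and with library size alone (adjusted p up to 0.111).

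The 3 lower canonical genes belong to the PCGF, CBX and PHC families, 1 from each. *Phc1*, a SAM domain protein that joins PRC1 complexes to each other, measured 444, 430 and 415 CPM in the control and 295, 299 and 286 CPM in the HOXA13 libraries. Both groups were narrow, and the level was 1.46-fold lower (log2 fold change -0.55, standard error 0.06, edgeR adjusted p = 0.000415). *Pcgf2*, which encodes MEL18, a partner of RING1B, measured 87.5, 61.4 and 60.4 CPM in the control and 37.4, 44.9 and 43.5 CPM in the HOXA13 libraries. Control library 1 stood above its group, and the level was 1.67-fold lower (log2 fold change -0.74, standard error 0.15, edgeR adjusted p = 0.00916), a call lost without HOXA13 library 1 (adjusted p = 0.0583). *Pcgf2* lies on chromosome 11, as *Suz12* does, and with each chromosome centred its log2 fold change was -0.61 (edgeR adjusted p = 0.00172). *Cbx7*, the main reader of the PRC2 mark among CBX proteins of embryonic stem cells, measured 115, 122 and 133 CPM in the control and 92.6, 97.3 and 96.3 CPM in the HOXA13 libraries, 1.29-fold lower without overlap (log2 fold change -0.37, standard error 0.07, edgeR adjusted p = 0.00708).

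The remaining PCGF, CBX and PHC genes of canonical PRC1 were not called. *Bmi1*, the alternative to *Pcgf2* in canonical PRC1, was at 16.9 ± 5.15 CPM in the control and 18.9 ± 1.19 CPM in the HOXA13 group (SD, n = 3), with a log2 interval from -0.29 to 0.64. The other PHC genes were likewise not called, *Phc2* with an interval from -0.23 to 0.15 and *Phc3* from -0.08 to 0.43, the latter called higher without control library 2 (edgeR adjusted p = 0.0486). Among the other CBX genes, *Cbx2* was at 33.0 ± 9.71 and 25.5 ± 4.22 CPM (SD, n = 3) with an interval from -0.85 to 0.10, and *Cbx6* had an interval from -0.27 to 0.16. *Cbx8* was low, with 22 to 40 counts a library, and its interval from -0.42 to 0.83 was the widest of the 32 members.

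Of the 9 variant PRC1 genes, 2 were higher, 2 were lower and 5 did not pass the test. *Pcgf5*, whose product forms a variant complex, lies on the plus strand of chromosome 19 (chr19:36453557-36530682 of mm9). Its level was 13.3, 8.09 and 10.7 CPM in the control libraries and 23.4, 23.5 and 20.9 CPM in the HOXA13 libraries. The groups did not overlap, and the rise was 2.10-fold (log2 fold change 1.07, standard error 0.17, edgeR adjusted p = 0.00291). *Rybp*, which stimulates the ligase in variant complexes, measured 56.0, 65.2 and 59.7 CPM in the control and 81.7, 71.7 and 77.0 CPM in the HOXA13 libraries, 1.27-fold higher (log2 fold change 0.35, standard error 0.08, edgeR adjusted p = 0.0171). The *Rybp* call was lost without control library 3 and without HOXA13 library 1 or 3 (adjusted p up to 0.0777).

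Lower in this class were *Kdm2b* and *L3mbtl2*. *Kdm2b*, whose product binds unmethylated CpG and brings a PCGF1 complex to CpG islands, measured 93.7, 84.9 and 76.2 CPM in the control and 45.1, 52.8 and 49.7 CPM in the HOXA13 libraries. All HOXA13 libraries were far below the control libraries, and the level was 1.73-fold lower (log2 fold change -0.79, standard error 0.10, edgeR adjusted p = 0.000944). The noncoding gene *A930024E05Rik* on the other strand shares 1.68% of the *Kdm2b* exon bases and was lower too (log2 fold change -2.24), with counts equal to 2.59% of those of *Kdm2b* in the control and 0.919% in the HOXA13 group. *Orai1*, also on the other strand, shares 7 exon bases with *Kdm2b* and had counts equal to 13.0% and 20.6% of those of *Kdm2b*. *L3mbtl2*, a subunit of the PCGF6 complex, measured 206, 185 and 196 CPM in the control and 153, 148 and 148 CPM in the HOXA13 libraries, 1.31-fold lower without overlap (log2 fold change -0.39, standard error 0.06, edgeR adjusted p = 0.00332). It shares 17.2% of its exon bases with *Chadl* on the opposite strand, whose counts were 0.606% and 0.417% of those of *L3mbtl2*. The libraries were made with a strand-specific kit, but the strand setting of the counting is not given in the sources used here.

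The remaining variant genes did not pass the test. *Pcgf6*, which partners L3MBTL2, was lower in every HOXA13 library than in every control library (81.8, 83.6 and 88.7 against 79.1, 70.7 and 73.9 CPM), but its log2 difference of -0.18 was called only with library size alone (edgeR adjusted p = 0.0905 and 0.0294 there). *Pcgf3* behaved likewise in its ranks, with 85.3 to 89.3 CPM against 78.9 to 84.1 CPM and a log2 interval from -0.24 to 0.05. *Yaf2*, the alternative to *Rybp*, had an interval from -0.52 to 0.03 and was called lower without control library 2 (adjusted p = 0.0310). *Bcor*, the scaffold of the PCGF1 complex, had an interval from -0.14 to 0.38 and was called higher without control library 1 (adjusted p = 0.0107). *Pcgf1* itself had 29 to 63 counts a library and an interval from -0.50 to 0.57.

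Neighbouring genes were read for each called member, as the nearest tested genes, 2 on either side. Beside *Rnf2*, whose neighbours were all higher, those called in the member's own direction were *Cul1* at *Ezh2* (log2 fold change 1.05, 4135 bases away), *Rnf182* at *Jarid2* (1.33), *Psmd5* and *Fbxw2* at *Phf19* (0.37 and 0.28), *Pip4k2b* at *Pcgf2* (-0.52), *Apobec3* at *Cbx7* (-0.75), *Rimklb* and *A2m* at *Phc1* (-1.35 and -2.89) and the overlapping *A930024E05Rik* at *Kdm2b*. Called in the opposite direction were *Tmed5* at *Mtf2*, *Plekha5* at *Aebp2*, *H2-K1* and *Slc39a7* at *Ring1*, *Mllt6* at *Pcgf2*, *Tnks2* at *Pcgf5*, *Foxp1* at *Rybp* and *Ep300* at *L3mbtl2*. No neighbour of *Suz12* or *Scmh1* was called. Distances differed widely, from 0 bases for *Tmed5* and 4685 for *Apobec3* to 378040 for *Tnks2*, 638494 for *A2m*, 962034 for *Foxp1* and 1058529 for *Rnf182*. The farthest neighbour of *Rnf2*, *Edem3*, was 254551 bases away. The part of neighbouring genes in the members' values was not tested.

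Levels were compared between genes as CPM per kilobase of merged exons of the mm9 annotation. In the control group *Rbbp7* was highest at 119 ± 4.10 (SD, n = 3), followed by *Phc1* at 81.1 ± 2.78, *Eed* at 78.9 ± 16.4 and *Suz12* at 66.4 ± 12.1, of which the last 3 did not differ beyond their spread. *Cbx8* was lowest at 0.443 ± 0.12, and the next lowest, *Phc3* (2.48 ± 0.33) and *Pcgf1* (2.68 ± 0.49), overlapped each other. In the HOXA13 group *Rbbp7* stayed highest, *Jarid2* reached 91.6 ± 3.35 CPM per kilobase, within the spread of *Suz12* (86.7 ± 6.21), and *Phc1* was at 55.4 ± 1.31. *Jarid2* thus lay below *Phc1* in every control library and above it in every HOXA13 library. The level of *Scmh1* was 3.81 ± 0.17 in the control and 11.8 ± 0.49 in the HOXA13 group, that of *Pcgf5* 6.23 ± 1.53 and 13.1 ± 0.84, and that of *Kdm2b* 7.19 ± 0.74 and 4.16 ± 0.33, the last within the spread of *Phf1* (4.18 ± 0.73).

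**Figure D3:**
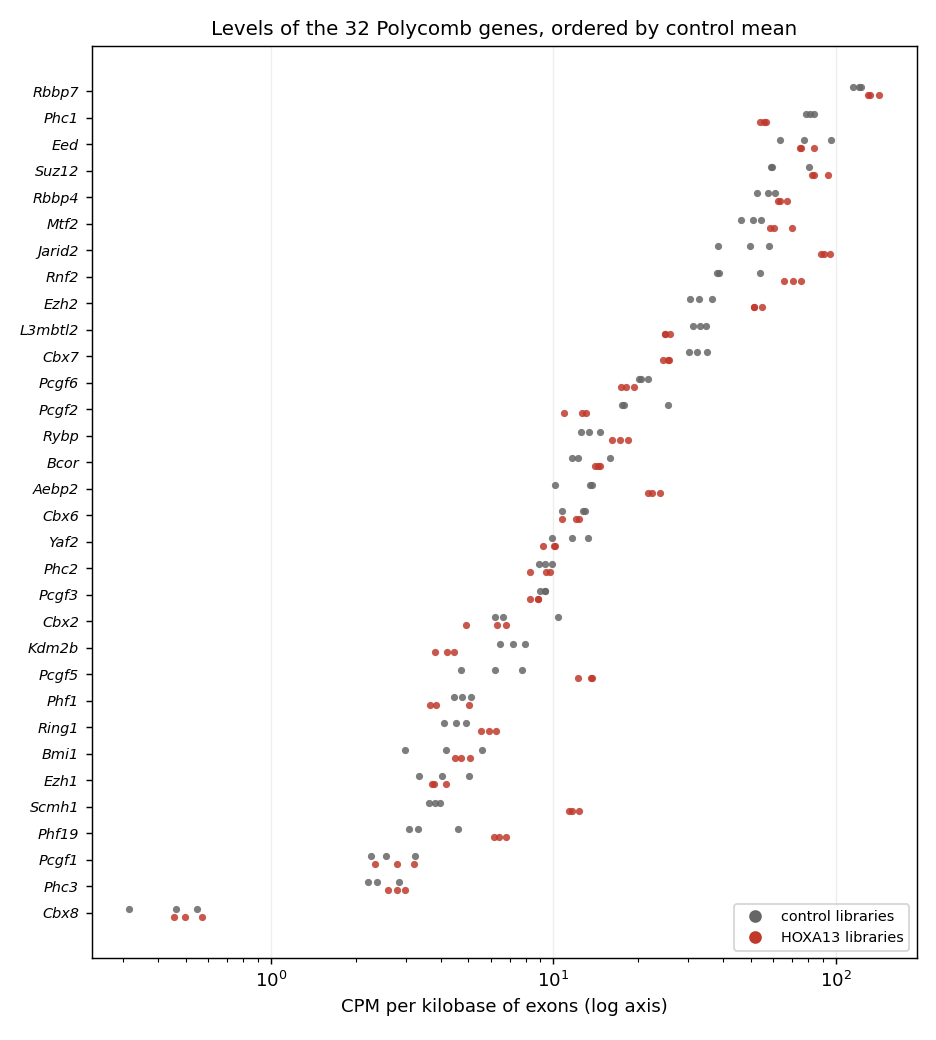
CPM per kilobase of exons (log axis) of the 32 genes in each library, ordered by the control mean, with gray points for control and red points for HOXA13 libraries. Levels run from 0.443 (*Cbx8*) to 119 (*Rbbp7*) in the control means, and the red points of *Jarid2*, *Scmh1* and *Pcgf5* stand well to the right of the gray ones.

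Paralogs that can replace each other in a complex were also compared as shares of their family's summed CPM per kilobase, as a description without a test. *Ezh2* made up 85.9, 91.6 and 89.0% of the EZH family in the control and 93.7, 93.2 and 92.5% in the HOXA13 libraries, while the family sum was 37.4 ± 2.21 and 56.4 ± 1.88 (SD, n = 3). The EZH shares thus moved by 4.28 percentage points toward the enzyme that was already dominant. Among RING1 genes, *Rnf2* held 90.5 ± 1.09% and 92.2 ± 0.94% (SD, n = 3) with overlap, and the family sum was 48.0 ± 9.26 in the control and 76.4 ± 4.42 in the HOXA13 group.

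In the PCGF family, whose member decides the kind of PRC1, the sum was 63.4 ± 4.71 CPM per kilobase in the control and 59.7 ± 0.44 in the HOXA13 group (SD, n = 3). Without length correction the PCGF sum was 264 to 287 CPM in the control and 240 to 245 CPM in the HOXA13 libraries, lower without overlap. *Pcgf2* held 37.0, 29.6 and 28.7% in the control libraries and 18.2, 21.6 and 21.3% in the HOXA13 libraries. *Pcgf5* held 11.3, 7.82 and 10.2% in the control and 22.8, 22.7 and 20.5% in the HOXA13 libraries. *Pcgf6* held 32.9 ± 3.34% in the control, not beyond the spread of *Pcgf2*, and 30.6 ± 1.86% in the HOXA13 group (SD, n = 3), with overlap between the groups. The *Pcgf5* gain of 12.2 percentage points was 5.40 points without length correction, since its annotated exons sum to 1719 bases and those of *Pcgf3* to 9544 bases.

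The CBX and PHC families were lower in sum. PHC genes summed to 93.0 ± 2.98 CPM per kilobase in the control and 67.3 ± 1.31 in the HOXA13 group (SD, n = 3), and *Phc1* held 87.4, 87.3 and 87.0% and then 83.4, 82.1 and 81.3%. The 4 CBX genes among the members summed to 52.9 ± 1.75 and 43.4 ± 2.51 (SD, n = 3), and of this sum *Cbx7* held 61.5 ± 2.64% and 58.1 ± 1.89% with overlap, whereas *Cbx6* held 20.8, 25.0 and 23.2% in the control and 26.5, 27.2 and 27.3% in the HOXA13 libraries, higher without overlap. Of the sum of *Rybp* and *Yaf2*, *Rybp* held 48.7, 59.6 and 53.5% in the control and 64.5, 61.4 and 65.3% in the HOXA13 libraries. For the Polycomb-like genes *Mtf2* held 85.6 ± 1.93% and 85.4 ± 1.95% (SD, n = 3), and *Phf1* held 8.09, 7.66 and 8.61% in the control and 4.80, 5.19 and 7.18% in the HOXA13 libraries, lower without overlap. The *Phf19* shares overlapped, and the RBBP shares differed by 0.05 percentage points.

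**Figure D4:**
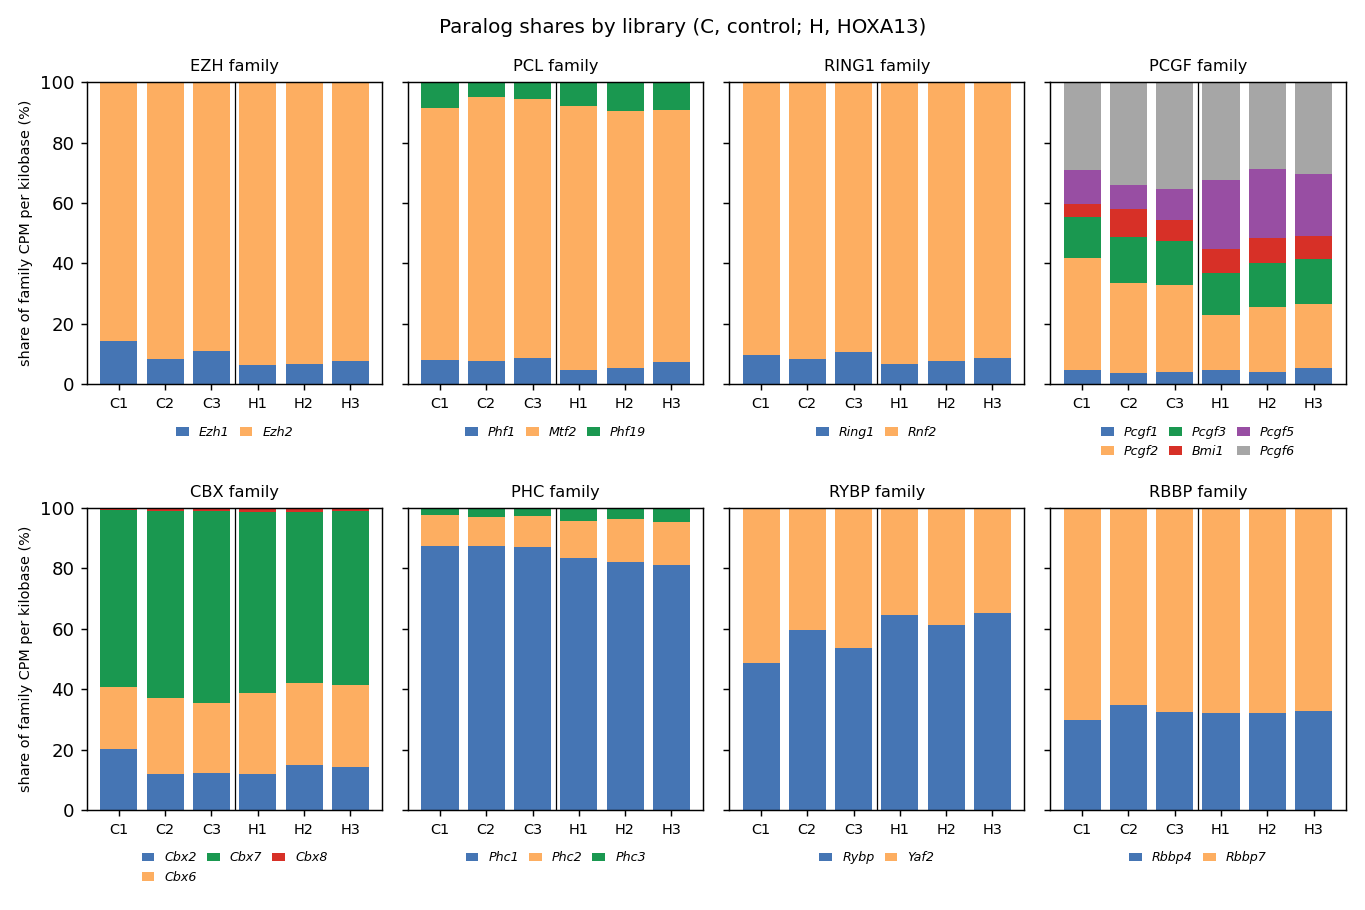
Share of each paralog in the summed CPM per kilobase of its family (percent, axis from 0), with 1 bar for each control library (C1 to C3) and each HOXA13 library (H1 to H3). The PCGF bars show *Pcgf5* at 7.82 to 11.3% in control and 20.5 to 22.8% in HOXA13 libraries with *Pcgf2* narrower, and the RBBP bars look alike in all libraries.

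Genes around the complexes were read from the same fit. Of 22 further Polycomb partners, 2 were higher and 3 were lower, with a median log2 fold change of 0.01, so that 22.7% were called beside 27.7% of all tested genes. *Usp7*, a deubiquitinase bound to variant PRC1, rose with a log2 fold change of 0.31 and the deacetylase gene *Hdac2* with 0.30, while *E2f6*, a DNA-binding subunit of the PCGF6 complex, fell with -0.33, *Auts2*, a subunit of PCGF3 and PCGF5 complexes, with -0.71 and *Csnk2b*, a casein kinase subunit, with -0.20. These calls depended on single libraries, with 0 higher without HOXA13 library 1 or 2 and 0 lower without HOXA13 library 1 or 3, and up to 3 higher (without control library 1 or 2) and 5 lower (without control library 2). With the replicate block *Hdac2* and *Csnk2b* were not called. Of 11 genes of the PR-DUB complex, which removes ubiquitin from histone H2A, *Ogt* was higher (log2 fold change 0.49) and *Asxl3* was lower (-1.03), the latter lost without control library 3 or any HOXA13 library. The 2 calls are 18.2% of this list, in the main fit also below the share over all tested genes. Without control library 2, 2 of the 11 were higher and 2 lower, with 35.5% of all tested genes called. With library size alone, 1 was higher and 3 were lower, with 29.4% of all tested genes called, so the comparison with all genes depended on the setting. Among 9 enzymes that oppose Polycomb, the demethylase gene *Kdm6a* (0.36) and the methyltransferase gene *Kmt2c* (0.58) were higher and the demethylase gene *Kdm6b* (-0.34) was lower, 33.3% of the list beside 27.7% of all tested genes. Without HOXA13 library 1 or 2, 1 of these 9 was higher, and without control library 3, without any one HOXA13 library or with the replicate block 0 were lower.

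A list of 42 Polycomb targets was read too, of which 29 passed the filter on low counts. Most are developmental regulators, but *Cdkn2a* and *Cdkn2b* are cell-cycle inhibitor genes. They were at 39.6 to 53.5 CPM and 25.5 to 42.6 CPM in the libraries, and neither was called. The list shares *Eomes*, *Gsc* and *Evx1* with the streak markers and *Gata4*, *Gata6* and *Sox17* with the endoderm markers. Of the 29 tested targets, 4 were higher and 8 were lower, beside 14.4% and 13.3% of all tested genes. With at least 10 counts required in every library, 2 were higher and 8 were lower, since *Nkx2-2* and *Neurog1* were then not tested. The neural factor gene *Olig2* measured 5.75, 18.1 and 9.30 CPM in the control and 1.93, 1.87 and 2.27 CPM in the HOXA13 libraries (log2 fold change -2.44, edgeR adjusted p = 0.00408). *Pax6* (-1.91), *Eomes* (-1.87) and *Neurod1* (-1.59) were the next lowest among the called genes, and *Eomes* was at 79.9, 17.5 and 45.8 CPM in the control, its order following that of the streak marker sum to which it belongs. Of the higher genes, *Gata3* measured 5.13, 5.03 and 4.75 CPM in the control and 14.9, 15.4 and 13.8 CPM in the HOXA13 libraries, and *Gata6*, an endoderm regulator, had a log2 fold change of 1.80. *Nkx2-2* had 3 to 6 counts in the control and 17 to 27 in the HOXA13 libraries, and *Neurog1* 0 to 4 and 11 to 33, so that both passed the filter through the HOXA13 group alone. The number of lower targets was 8 in the full set, 14 without control library 2, 5 without control library 3, 4 without HOXA13 library 1 or 2 and 7 without control library 1.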

How the data were processed

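RNA-seq of 3 control and 3 HOXA13 cultures of non-differentiated KH2 mouse embryonic stem cells was analysed, with groups and replicate numbers from the sample labels. Stranded libraries were prepared, and the authors mapped the reads to mm9 with TopHat2 and counted genes with HTSeq (per the submitters' processing notes, TopHat2 2.0.14 and HTSeq 0.6.1p1), and deposited whole-number counts without normalization, 1 table for each library. The annotation, counting mode and strand setting are not given in the sources used here. Wrong strand settings or shared exons would add or remove reads of overlapping genes.

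Counts were tested in edgeR 4.0.16 (R 4.3.3), with filterByExpr at its defaults (minimum count 10, minimum total 15), TMM factors and the quasi-likelihood test without covariates, and Benjamini-Hochberg adjustment over all 13846 tested genes at 0.05. Standard errors are the log2 fold change divided by the root of F, and 95% intervals use the same test. Floors of 3 counts cover counting error only. Totals were 13494135 to 21766589 counts. Positions and exon lengths are from GENCODE on NCBIM37 (mm9), and promoters from RefSeq on GRCm38.p6, the builds being used apart. The members, classes, other lists and motif words were chosen with earlier results of these data known. All members are named, and 1 further gene is not reported here. Of each other list, all called genes are named up to 8, else the 4 most positive and 4 most negative. The code was tested on simulated data. Alternatives were RLE factors, library size alone, no filter, 10 counts in every library, the replicate block, robust estimation, DESeq2 1.42.0, limma-voom (limma 3.58.1), centring each chromosome, levels without length correction and leaving out each library. Figures used matplotlib 3.10.9.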

Additional observations from a re-analysis of the deposited data

How the results depend on the processing

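Over 15 alternatives, 11 of the 16 called genes stayed called in all, and no called gene changed direction. Of the 16 uncalled genes, 10 were called in none and 6 in at least 1. Leaving out 1 library at a time gave 7 to 13 Polycomb genes higher and 4 to 6 lower, and 1134 to 2428 of all genes higher and 904 to 2579 lower. With library size alone, 1576 genes were higher and 2500 were lower, against 1994 and 1842, the median of all genes moved to -0.07, and the canonical PRC1 median was -0.0056. The fit with a replicate block gave 10 Polycomb genes higher and 5 lower, and 1696 and 1476 of all genes. Same-numbered libraries did not deviate together (correlations of -0.02, -0.05 and 0.02), so the numbers were not taken as pairs.

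Signs turned only among uncalled genes. With each chromosome centred, *Ezh1* was at 0.035 and *Eed* at 0.031, *Eed* was at 0.0065 with limma-voom, and *Pcgf1* was at -0.039 with library size alone. Leaving out 1 library gave ranges of -0.23 to 0.064 for *Ezh1*, -0.15 to 0.14 for *Eed*, -0.026 to 0.40 for *Bmi1*, -0.13 to 0.0087 for *Cbx6*, -0.0014 to 0.41 for *Cbx8*, -0.086 to 0.029 for *Phc2* and -0.078 to 0.19 for *Pcgf1*. Without length correction the *Pcgf3* share changed by 1.60 points, against -0.14. The cause of these shifts was not tested.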
